A study of Mus musculus with 13 samples.

Results

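The results below concern 10 imprinted genes that control growth: Cdkn1c, H19, Igf2, Meg3, Rian, Grb10, Ndn, Plagl1, Igf2r and Peg3. They were chosen by name, as imprinted genes linked to growth control in stem cells, with earlier results of these data known. They were matched by symbol among the 54838 genes of the count table. All 10 were found there, and 8 of them passed the filter on low counts. H19 and Igf2 did not pass it and were tested only in the setting without that filter.

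The study asked how a mutant p53 and an oncogenic Nras act together in leukemia of mice. RNA was taken from 50000 sorted Lin- cKit+ bone marrow cells per mouse, a fraction that holds blood stem and progenitor cells without mature lineage markers, and was sequenced from stranded total-RNA libraries. There were 13 libraries from separate mice, with 3 controls, 3 p53mut, 3 NrasG12D and 4 NPmut mice. Counts summed to between 12576174 and 29124022 per library.

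Every mouse, controls included, carried the Mx1-Cre transgene, whose interferon-responsive promoter drives Cre in blood-forming cells and in other cells. Controls carried Mx1-Cre alone. The p53mut mice also carried 1 p53 R172H allele and the NrasG12D mice 1 Nras G12D allele, and the NPmut mice carried both. At about 6 weeks of age these first 3 groups received 3 injections of pI-pC, an inducer of interferon, every other day, with 100 µg in each. The NPmut mice are labelled as untreated and were moribund when their cells were taken, while the other groups are labelled age-matched. Double mutation, moribund stage and the lack of pI-pC therefore cannot be told apart in any comparison with NPmut. The colony had a C57BL/6J background, with no second strain, so the counts do not separate the maternal from the paternal copy of a gene.

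An imprinted gene is transcribed mainly from 1 parental copy. Which copy is silent usually depends on DNA methylation set in the germ line, at some loci by way of an antisense RNA. Many maternally expressed imprinted genes restrain growth, among them inhibitors of insulin-like growth factor (IGF) signaling and of cyclin-dependent kinases (CDK), whereas several paternally expressed ones promote it. In blood stem cells, imprinted genes such as Cdkn1c and H19 are known for their part in holding cells in quiescence.

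The sorted fraction carried Kit, the marker that defines it. All 7 listed markers of blood stem and progenitor cells, Kit, Cd34, Ptprc, Myb, Spi1, Flt3 and Cd48, passed the filter and none was at 0 in any library. Their summed level was 2524 ± 182 CPM (counts per 10⁶ of the library total, SD, n = 3) in controls and 2355 ± 140 CPM (SD, n = 4) in NPmut, with Myb making up 42.9% to 56.6% of it in NPmut. Single markers differed in NPmut against control, with Kit at a log2 of -0.54 (adjusted p = 0.0329), Spi1 at 0.80 (adjusted p = 0.0213) and Flt3 at 1.15 (adjusted p = 0.0361), of which Flt3 alone reached 2-fold. CPM of genes use library totals scaled by TMM, a factor that evens out composition between libraries.

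Levels differed widely among the imprinted genes. Compared per length, as RPKM (reads per kilobase of exon, scaled like CPM), Grb10 was the most abundant in controls at 5.94 ± 0.848 RPKM and Igf2r came next at 4.29 ± 0.972 RPKM (SD, n = 3). The difference between them was larger than either SD. The other 8 genes followed in the order Cdkn1c (0.508 RPKM), Ndn, Plagl1, H19, Meg3, Peg3, Rian and Igf2 (0.0232 RPKM), and from Ndn to Rian each gene differed from the next by less than its SD. Grb10 and Igf2r together made up between 75.0% and 95.7% of the summed CPM of the 10 genes in each library. That sum was 101 ± 15.4 CPM in controls, 94.5 ± 18.5 CPM in p53mut, 59.1 ± 8.43 CPM in NrasG12D (SD, n = 3 each) and 20.3 ± 7.44 CPM in NPmut (SD, n = 4). It carries mostly Grb10 and Igf2r.

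**Figure D1:**
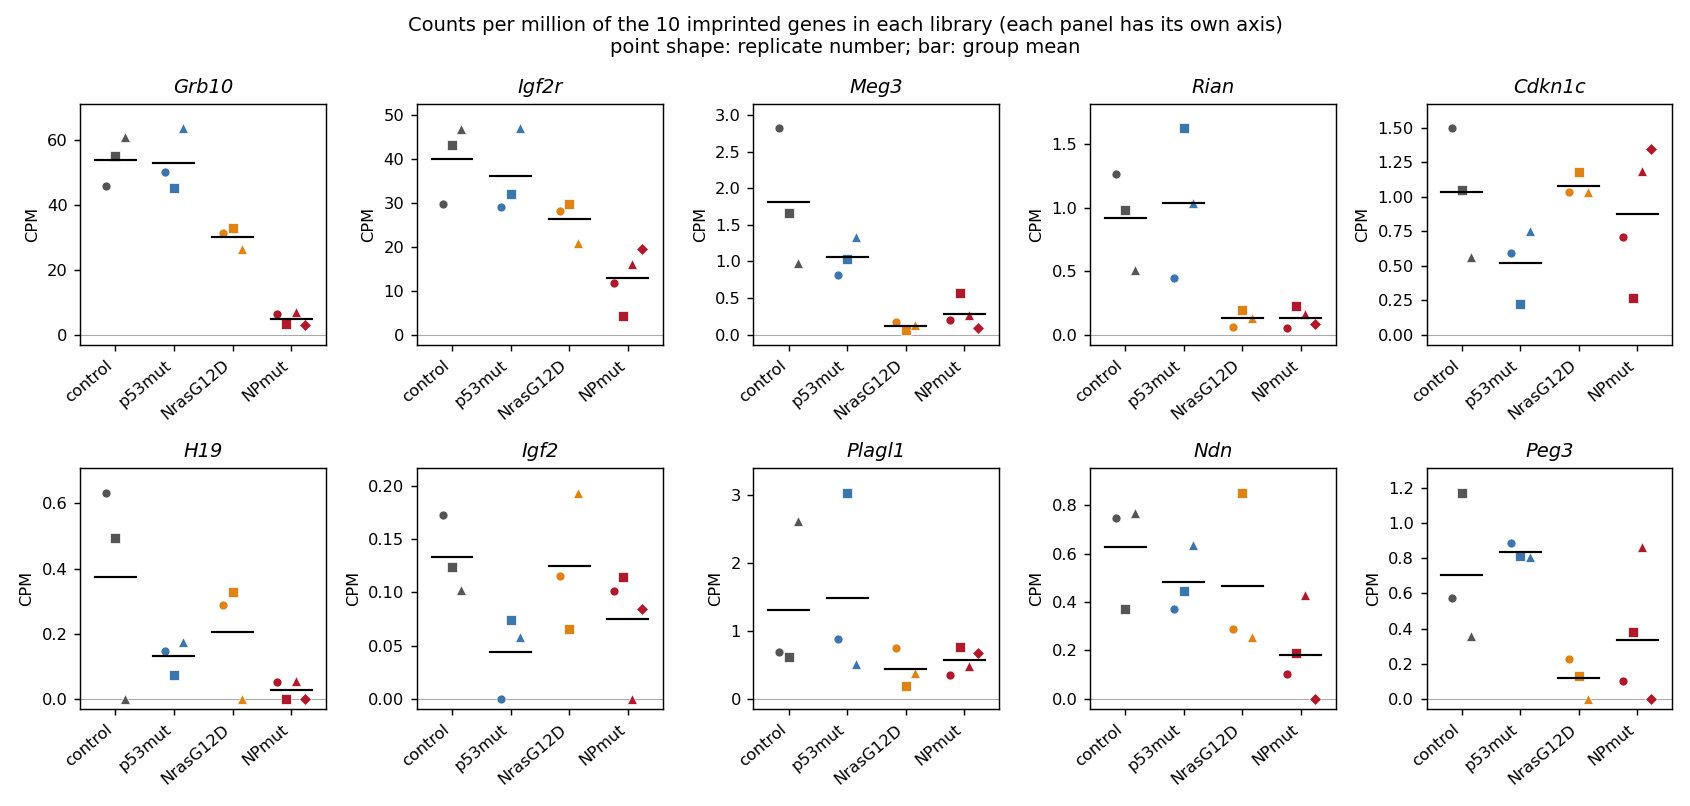
Level of each of the 10 imprinted genes in CPM (vertical axis, from 0, a separate scale per gene) in every library, by genotype (horizontal axis), with the point shape giving the replicate number and the bar the group mean. Grb10 lies between 3.03 and 7.05 CPM in the 4 NPmut libraries and between 45.8 and 61.1 CPM in the 3 controls.

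The plot of levels by library has 1 panel per gene. The panels of Grb10 and Igf2r rest on at least 36 and 111 counts per library, whereas no other panel has a library with more than 51 counts.

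Sequences upstream of 3 of these genes are shown because their values carry the comparisons below: Grb10 and Igf2r as the abundant genes, and Meg3 as a gene of the cluster that also holds Rian. Of the 10 genes, 8 had an entry in the RefSeq promoter table for GRCm38.p6, and Cdkn1c and H19 had none. Each sequence is the 250 bases before the RefSeq start, 5′ to 3′ on the gene's strand, with every CG pair, the unit that DNA methylation acts on, in capitals. The Grb10 window is chr11:12037421-12037670 on the minus strand, the Igf2r window chr17:12769707-12769956 on the minus strand and the Meg3 window chr12:109540746-109540995 on the plus strand.
Grb10: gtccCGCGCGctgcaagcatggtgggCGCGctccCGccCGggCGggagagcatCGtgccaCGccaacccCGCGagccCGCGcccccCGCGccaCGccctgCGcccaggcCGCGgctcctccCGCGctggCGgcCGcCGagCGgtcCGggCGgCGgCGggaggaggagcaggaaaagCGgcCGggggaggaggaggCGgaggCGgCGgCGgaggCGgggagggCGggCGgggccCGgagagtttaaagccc
Igf2r: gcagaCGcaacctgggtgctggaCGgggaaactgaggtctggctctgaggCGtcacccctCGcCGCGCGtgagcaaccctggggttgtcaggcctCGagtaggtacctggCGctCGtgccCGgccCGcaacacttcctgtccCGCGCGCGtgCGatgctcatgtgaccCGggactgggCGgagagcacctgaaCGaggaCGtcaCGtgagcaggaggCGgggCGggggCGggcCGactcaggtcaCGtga
Meg3: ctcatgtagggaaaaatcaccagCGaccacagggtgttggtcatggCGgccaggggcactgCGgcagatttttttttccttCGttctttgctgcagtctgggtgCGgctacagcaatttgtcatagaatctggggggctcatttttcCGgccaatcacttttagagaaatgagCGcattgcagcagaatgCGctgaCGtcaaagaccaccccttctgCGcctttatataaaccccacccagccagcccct
The Grb10 window holds 40 CG pairs, and 1.31% of the 32817 windows of that length in the table hold as many. The Igf2r window holds 27, a number that 8.57% of windows reach, and the Meg3 window holds 10, which 37.8% reach. The median window holds 6. Grb10 and Meg3 have 2 entries each in the table, and the one with more CG pairs is shown, which sets its rank high. The other holds 8 CG pairs for Grb10, a number that 43.0% of windows reach, and 0 for Meg3. The Grb10 window shown lies inside the annotated body of Grb10, which starts at base 12038683 on the minus strand. It is thus upstream of the RefSeq start but not of the annotated start. The Igf2r window lies inside the annotated body of Airn, the antisense RNA known to silence the paternal Igf2r copy. After these sequences had been read, the letters CACGTG, TGACGTCA and TATAAA were searched on both strands. CACGTG, held by 6.02% of all windows, occurs in the Igf2r window 48 and 7 bases before the start. TGACGTCA, held by 1.55%, occurs in the Meg3 window 57 bases before the start, and TATAAA, held by 12.4%, occurs there 25 and 29 bases before the start on opposite strands. These matches describe the letters only.

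The comparison of NPmut with control asked what the moribund double mutants had in common against healthy mice. Grb10, whose adaptor protein binds the insulin and IGF1 receptors and dampens their signal, fell 10.9-fold. Igf2r, whose receptor takes IGF2 out of circulation for breakdown, fell 3.14-fold. Meg3 and Rian, maternally expressed noncoding RNAs of 1 cluster on chromosome 12, fell 5.87-fold and 6.32-fold from low counts. No imprinted gene of the 10 rose.

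Of the 8 genes tested, 4 were called lower in NPmut, where a call needs a Benjamini-Hochberg adjusted p under 0.05 over all 17795 genes tested by edgeR and a change of at least 2-fold. Over all genes tested, 5.98% were called in this comparison and 3.71% were called lower. Since the genes were chosen with earlier results of these data known, such shares are given for scale only, here and below. The 8 log2 fold changes were all negative, with a median of -1.67, against a median of 0.01 over all genes tested, of which 49.2% were negative. DESeq2 also called 4 of the 8. All NPmut libraries lay below all controls for 4 of the 8, and for 11.7% of all genes tested.

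Grb10 (ENSMUSG00000020176, chr11:11930508-12038683, minus strand) is maternally expressed in most tissues. It stood at 45.8, 55.1 and 61.1 CPM in control replicates 1 to 3, at 50, 45.1 and 63.6 CPM in p53mut, at 31.2, 32.8 and 26.5 CPM in NrasG12D, and at 6.22, 3.32, 7.05 and 3.03 CPM in NPmut replicates 1 to 4. The control and p53mut libraries overlapped and were high, the NrasG12D libraries lay together below both, and the NPmut libraries lay below all 9 others. Against control, its log2 fold change in NPmut was -3.45 ± 0.25 (SE), with an adjusted p of 1.77e-05, and all 4 NPmut libraries were below all 3 controls. The call held under 16 of 16 other settings, with log2 fold changes between -3.66 and -3.28. Bulk RNA gives a mean over the sorted cells, so fewer cells of a type and less RNA per cell cannot be told apart, here or for any gene below.

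Igf2r (ENSMUSG00000023830, chr17:12682406-12769664, minus strand) is maternally expressed in most mouse tissues. It stood at 29.7, 43.3 and 46.8 CPM in controls, at 29.0, 32.1 and 47.0 CPM in p53mut, at 28.2, 29.7 and 21 CPM in NrasG12D and at 11.7, 4.23, 16.2 and 19.5 CPM in NPmut. All 4 NPmut libraries lay below every other library, with NPmut replicate 4 next to NrasG12D replicate 3. The log2 fold change against control was -1.65 ± 0.38 (SE), with an adjusted p of 0.0149. The call held under 11 of 16 other settings, whose adjusted p ran from 0.000154 to 0.0846, and was lost without control replicate 3 (log2 -1.51, adjusted p = 0.0651). It was also lost, with a change about as large or larger, with no filter on low counts (-1.62, adjusted p = 0.0503), in a fit of NPmut and control alone (-1.63, adjusted p = 0.0504), and with background reads as a covariate (-2.32, adjusted p = 0.0846, or -2.33 and 0.0802 from protein-coding receptor genes).

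Meg3 (ENSMUSG00000021268, chr12:109541001-109571726, plus strand) is a maternally expressed noncoding RNA. It had 49, 27 and 19 counts in controls, 11, 14 and 23 in p53mut, 3, 1 and 2 in NrasG12D, and 4, 15, 5 and 1 in NPmut. In CPM these were 2.82, 1.66 and 0.972 in controls, 0.813, 1.03 and 1.33 in p53mut, 0.172, 0.0654 and 0.129 in NrasG12D and 0.202, 0.572, 0.269 and 0.0843 in NPmut. Every NrasG12D and NPmut library lay below every control and p53mut library, and these 2 groups overlapped each other. The log2 fold change in NPmut against control was -2.55 ± 0.54 (SE), with an adjusted p of 0.0079.

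Rian (ENSMUSG00000097451, chr12:109603940-109661716, plus strand), which hosts small nucleolar RNAs, begins 62.9 kb downstream of the start of Meg3. It had 22, 16 and 10 counts in controls, 6, 22 and 18 in p53mut, 1, 3 and 2 in NrasG12D and 1, 6, 3 and 1 in NPmut. In CPM it reached 1.265, 0.986 and 0.512 in controls, 0.443, 1.63 and 1.04 in p53mut, 0.0574, 0.196 and 0.129 in NrasG12D, and 0.0506, 0.229, 0.161 and 0.0843 in NPmut. As for Meg3, the NrasG12D and NPmut libraries were all below the control and p53mut libraries. Its log2 fold change in NPmut against control was -2.66 ± 0.63 (SE), with an adjusted p of 0.0151. Without control replicate 1, the call was lost for Meg3 (log2 -2.07, adjusted p = 0.0594, range over its 16 settings 0.000682 to 0.308) and for Rian (log2 -2.34, adjusted p = 0.0758, range over its 15 settings 0.00515 to 0.454).

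Background reads moved with the 2 noncoding RNAs. Olfactory and vomeronasal receptor genes, 1967 in the annotation, are not expected in marrow cells, and reads on them served as a measure of background. In CPM of the unscaled library totals they came to 142, 202 and 109 in controls, to 108, 147 and 63.1 in p53mut, to 47.6, 40.3 and 45.5 in NrasG12D and to 18.4, 48.5, 61.0 and 18.4 in NPmut. The control and p53mut libraries were all higher than the NrasG12D and NPmut libraries. At the same reads per kilobase of exon, background would give 24.5% of the Meg3 counts in controls, 28.5% in p53mut, 108% in NrasG12D and 38.3% in NPmut. For Rian these shares were 48.9%, 30.0%, 109% and 87.8%, so that in NrasG12D neither RNA stood above the level of background. For Grb10 and Igf2r no group's share passed 1.28%. With the background as a covariate, Grb10 was the 1 gene of the 8 tested still called in NPmut against control (log2 -3.54, adjusted p = 0.00426). Igf2r lost its call with a larger change (-2.32, adjusted p = 0.0846), whereas the changes of Meg3 (-1.66, adjusted p = 0.308) and Rian (-1.36, adjusted p = 0.454) became smaller. Because background split the groups by the Nras allele, this covariate cannot be fully told apart from that allele. This holds for every gene, in comparisons of groups with the allele against groups without it. A call lost or a change made smaller with it therefore does not measure the part of background. Beyond this covariate, the part of background in the values of Meg3 and Rian was not tested.

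The other 4 genes tested did not pass in this comparison. Cdkn1c (ENSMUSG00000037664), which encodes the CDK inhibitor p57, had 26, 17 and 11 counts in controls, 8, 3 and 13 in p53mut, 18, 18 and 16 in NrasG12D and 14, 7, 22 and 16 in NPmut. NPmut overlapped every other group, while in CPM p53mut lay below NrasG12D in all libraries, and the log2 fold change in NPmut against control was -0.28 ± 0.54 (SE, adjusted p = 0.794), turning positive without control replicate 1 (0.11) or NPmut replicate 2 (0.05). Among the paternally expressed genes, Plagl1, a zinc finger transcription factor that restrains the cell cycle, had between 7 and 20 counts in NPmut and between 10 and 51 in controls. Ndn, which encodes the growth suppressor necdin, had between 0 and 8 counts in NPmut and between 6 and 15 in controls. Peg3, another zinc finger gene, had between 0 and 16 counts in NPmut and between 7 and 19 in controls. Their log2 fold changes were -1.20 for Plagl1 (adjusted p = 0.281), -1.69 for Ndn (adjusted p = 0.149) and -0.97 for Peg3 (adjusted p = 0.487). The ranges of all 3 overlapped between NPmut and control, and the sign of Peg3 turned with background reads as a covariate (1.67). With 1 library left out, Plagl1 ran from -1.51 to -0.19, Ndn from -2.39 to -1.38 and Peg3 from -1.84 to -0.38 in log2.

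H19 and Igf2, neighbors on chromosome 7 with the maternal copy of the first and the paternal copy of the second active, were at the edge of detection. H19, a noncoding RNA, had 11, 8 and 0 counts in controls, 2, 1 and 3 in p53mut, 5, 5 and 0 in NrasG12D and 1, 0, 1 and 0 in NPmut. Igf2, the growth factor itself, had between 0 and 3 counts in every library. The 2 control libraries with H19 reads were the highest of the 13. A count of 0 allows a level of up to 3 counts, which is between 0.103 and 0.239 CPM of the unscaled library totals, and covers counting error only. Tested with no filter on low counts, NPmut against control gave log2 fold changes of -3.44 ± 1.27 for H19 and -0.69 ± 1.36 for Igf2 (SE). Their adjusted p were 0.0828 and 0.823. For Igf2 the background would give 105% of the counts in controls, 217% in p53mut, 34.1% in NrasG12D and 50.5% in NPmut. Igf2 shares 3596 of its 5723 exonic bases with Gm49394 on the same strand, and how reads there were counted is not known. Its RPKM and background share use the full exon length.

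The p53mut mice were compared with control to show the effect of the p53 allele alone. None of the 8 genes differed by the test. Grb10 and Igf2r had overlapping libraries in both groups, at 54.0 ± 7.71 against 52.9 ± 9.57 CPM for Grb10 and 39.9 ± 9.05 against 36.0 ± 9.62 CPM for Igf2r (control against p53mut, SD, n = 3 each). edgeR called 0 of the 8, with 0 at an unadjusted p under 0.05 and 0 called by DESeq2. Over all genes tested 0% were called, 412 had an unadjusted p under 0.05 and DESeq2 called 3. A fit of these 2 groups alone called 1 gene, and 16 with a block for the replicate number. The block in the fit of all groups left the count at 0. The median log2 fold change was -0.09 over the 8 and 0.00 over all genes tested, and 5 of the 8 were negative. The log2 fold change was -0.15 ± 0.40 for Igf2r and -0.03 ± 0.24 for Grb10 (SE), which turned positive without control replicate 3 (0.07), p53mut replicate 1 (0.01) or p53mut replicate 2 (0.08). Its size was greatest for Cdkn1c at -0.95 ± 0.61 (SE, adjusted p = 1), where 1 of 3 p53mut libraries lay below all controls.

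NrasG12D against control shows the oncogenic Nras allele alone. Here too none of the 8 genes was called, where 0.00562% of all genes tested were (1 of 17795), but 4 had all 3 NrasG12D libraries below all 3 controls: Grb10, Meg3, Rian and Peg3. Of all genes tested, 10.8% had the NrasG12D libraries all below the controls. Grb10 averaged 30.2 ± 3.29 CPM in NrasG12D against 54.0 ± 7.71 CPM in controls (SD, n = 3 each). Meg3, Rian and Peg3 summed to 6 counts each over the 3 NrasG12D libraries. In controls they summed to 95, 48 and 36 counts.

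In this comparison edgeR called 0 of the 8 genes, 4 had an unadjusted p under 0.05, and DESeq2 called 1, Meg3. Over all genes tested, 1620 had an unadjusted p under 0.05 and DESeq2 called 77. Of the 8 log2 fold changes 7 were negative, with a median of -1.19, against -0.02 over all genes tested, of which 53.1% were negative. The log2 fold change of Grb10 was -0.84 ± 0.25 (SE, adjusted p = 0.262) and that of Igf2r -0.60 ± 0.40 (SE, adjusted p = 0.718). For Meg3 it was -3.80 ± 0.68 (SE, adjusted p = 0.0686), and it was called with no filter on low counts, in a fit of these 2 groups alone and with a block for the replicate number. Rian (-2.80, adjusted p = 0.21), Peg3 (-2.43, adjusted p = 0.479) and Plagl1 (-1.54, adjusted p = 0.562) did not pass. Peg3 had 4, 2 and 0 counts in NrasG12D, of which background would give 79.4%. Grb10 and Igf2r had at least 326 counts in each of these libraries.

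NPmut against NrasG12D asks what the p53 allele adds to oncogenic Nras, together with the stage and treatment that go with it. Grb10 fell 6.1-fold, from 30.2 ± 3.29 CPM (SD, n = 3) to 4.91 ± 2.03 CPM (SD, n = 4), and all 4 NPmut libraries lay below all 3 NrasG12D libraries. It was the 1 gene of the 8 called. Of all genes tested, 10.9% had the NPmut libraries all below the NrasG12D libraries. Meg3 and Rian were as low in NrasG12D as in NPmut or lower, with log2 differences of 1.24 ± 0.71 and 0.14 ± 0.79 (SE) and overlapping libraries. The sign for Rian turned without NrasG12D replicate 1 (-0.23) or NPmut replicate 2 (-0.32).

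That 1 call was lower in NPmut, against 4.42% of all genes tested that were called and 2.58% that were called lower. The median over the 8 was -0.10, with 4 negative, against 0.04 over all genes tested, of which 45.8% were negative. Grb10 had a log2 fold change of -2.61 ± 0.25 (SE), with an adjusted p of 5.50e-05, and the call held under 16 of 16 other settings. Igf2r was lower in 4 of 4 NPmut libraries, by a log2 of -1.05 ± 0.38 (SE) that missed the threshold (adjusted p = 0.109), and was called by DESeq2. For Cdkn1c the log2 fold change was -0.34 ± 0.55 (SE, adjusted p = 0.754).

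NPmut against p53mut asks what oncogenic Nras adds to the p53 allele, again together with the stage and treatment that go with it. Grb10 fell 10.7-fold, Rian 7.14-fold and Igf2r 2.84-fold, each lower in 4 of 4 NPmut libraries than in all 3 p53mut libraries. Meg3 was also lower in 4 of 4 NPmut libraries but missed the threshold. Of all genes tested, 10.7% had the NPmut libraries all below the p53mut libraries. These 3 calls, all lower in NPmut, compare with 5.21% of all genes tested that were called and 3.1% that were called lower. The median over the 8 was -1.43, with 7 negative, against 0.02 over all genes tested. DESeq2 called 4 of the 8 and 1187 of all genes tested.

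The log2 fold changes were -3.42 ± 0.25 for Grb10 (SE, adjusted p = 2.00e-05), -2.84 ± 0.64 for Rian (SE, adjusted p = 0.0114) and -1.50 ± 0.38 for Igf2r (SE, adjusted p = 0.0245). Meg3 was at -1.79 ± 0.56 (SE, adjusted p = 0.0552). It was called in some other settings, among them without NPmut replicate 2 (log2 -2.41, adjusted p = 0.0187). The Rian call was lost without p53mut replicate 2 (log2 -2.37, adjusted p = 0.0569) or p53mut replicate 3 (log2 -2.82, adjusted p = 0.0523), and with background reads as a covariate, where its change became smaller (log2 -1.91 in both versions, adjusted p = 0.197 and 0.187), and over its 14 settings the adjusted p ran from 0.00272 to 0.197. Igf2r lost its call without p53mut replicate 3 (log2 -1.25, adjusted p = 0.122) or NPmut replicate 1 (log2 -1.46, adjusted p = 0.0612), with no filter on low counts (-1.48, adjusted p = 0.0869), in a fit of these 2 groups alone (-1.50, adjusted p = 0.081) and with background reads as a covariate (-1.99 in both versions, adjusted p = 0.0699 and 0.0661), with a range of 0.000783 to 0.122 over 16 settings. The 3 comparisons with NPmut share the same 4 NPmut libraries, and the 3 comparisons with control share the same 3 controls, so a like direction in them is no repeat.

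**Figure D2:**
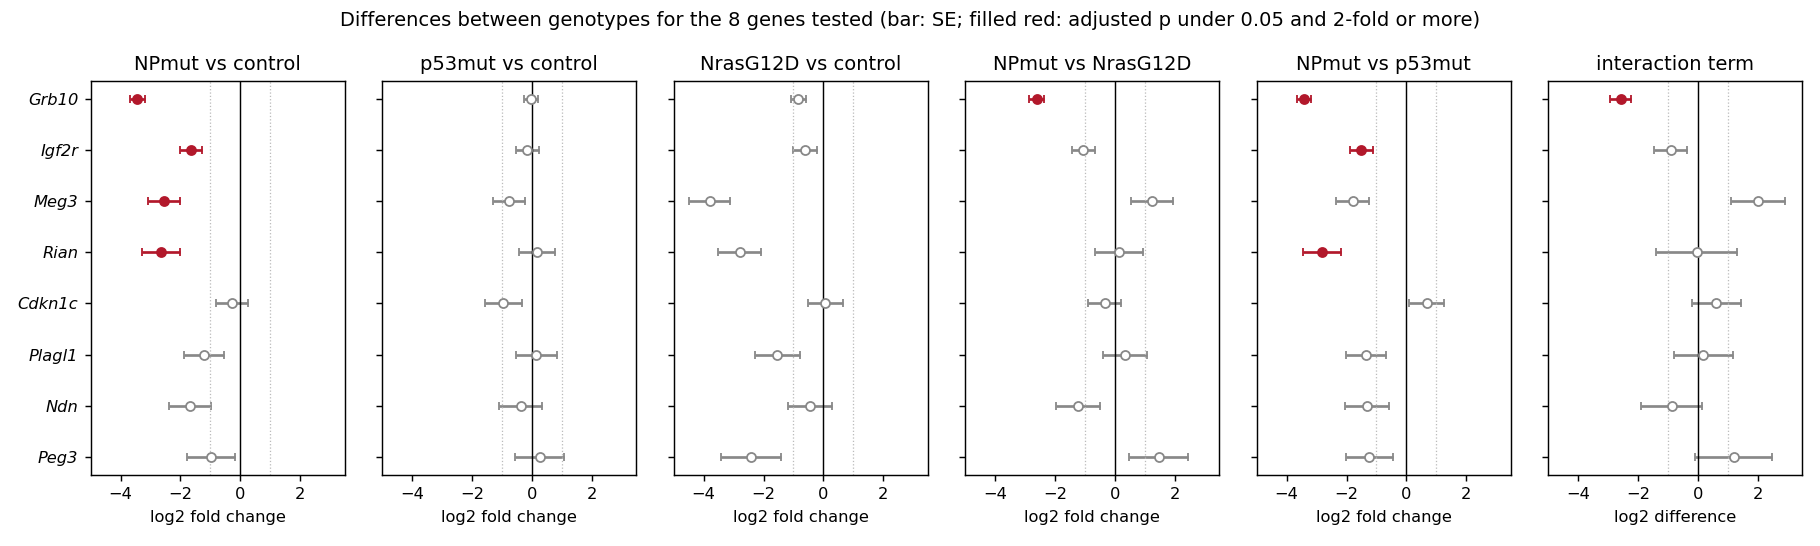
Log2 fold change (horizontal axis) of the 8 imprinted genes tested (vertical axis) in 5 comparisons of genotypes and in the interaction term, with bars for the SE and filled red points for an adjusted p under 0.05 with at least a 2-fold change. Grb10 is filled in 4 of the 6 panels, at -3.45, -2.61, -3.42 and -2.58.

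The interaction term gives the log2 difference between NPmut and the level reached by adding the effects of both alleles alone to control. For Grb10 the sum of these effects was small, with -0.03 for the p53 allele and -0.84 for Nras, and NPmut lay well below it. The departure was -2.58 ± 0.35 (SE), with an adjusted p of 0.00293, which is a level 5.98-fold lower than the sum of the single effects gives. For every gene, the moribund stage and the lack of pI-pC in NPmut enter this term too. They cannot be told apart there from a joint effect of both alleles. For Rian the departure was -0.03 ± 1.36 (SE, adjusted p = 0.993), and its sign turned in 6 other settings. So small a change makes the SE imprecise. Rian stood at or near the level of background in NrasG12D and NPmut, and Meg3 did so in NrasG12D, so for neither gene does this term show whether the single effects add up. For Meg3 the departure was 2.01 ± 0.90 (SE, adjusted p = 0.289), and for Igf2r -0.90 ± 0.55 (SE, adjusted p = 0.457).

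Grb10 was the 1 gene of the 8 called in that term, and it was lower. Of all genes tested 1.28% were called there and 0.888% were called lower. The median over the 8 was 0.08, with 4 negative, against 0.05 over all genes tested, and DESeq2 called 1 of the 8. The Grb10 call held under 21 of 21 other settings, between -2.80 and -2.42. In the plot of differences between genotypes, Grb10 is the gene with the shortest bars, whereas Meg3, Rian and Peg3 have bars of 0.54 or more in each panel.

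Other imprinted genes lie in the same clusters as the 10. Of 31 listed, 16 passed the filter, and in NPmut against control edgeR called 1 of these, lower, where 5.98% of all genes tested were called. Their median log2 fold change was -0.56, with 13 of 16 negative, 8 had an unadjusted p under 0.05, as had 4553 of all 17795 genes tested, and DESeq2 called 3. The gene called was Slc22a3, an organic cation transporter 262 kb downstream of the start of Igf2r. Its level was 78.4, 43.0 and 62.9 CPM in controls, 92.8, 47.0 and 85.2 CPM in p53mut, 72.0, 86.5 and 62.3 CPM in NrasG12D and 11.2, 3.09, 27.7 and 5.90 CPM in NPmut. All 4 NPmut libraries lay below the other 9. The log2 fold change was -2.36 ± 0.57 (SE, adjusted p = 0.0231), and it was lost in 9 of 16 other settings, whose adjusted p ran from 0.00062 to 0.281. The call ended with a block for the replicate number (adjusted p = 0.0522), with no filter on low counts (0.0685), in a fit of NPmut and control alone (0.0568) and with background reads as a covariate (log2 -1.90, 0.281, or -1.93 and 0.274 from protein-coding receptor genes). The libraries whose removal ended it were control replicate 1 (adjusted p = 0.0759), control replicate 3 (0.0706), NPmut replicate 1 (0.0531) and NPmut replicate 4 (0.0524). Over all fits without 1 library, the log2 change ran from -3.19 to -2.02.

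Against NrasG12D, Slc22a3 fell by -2.62 ± 0.57 (log2, SE, adjusted p = 0.0176), and against p53mut by -2.65 ± 0.57 (adjusted p = 0.015). Against NrasG12D the call was lost without NrasG12D replicate 1 (0.0501) or 2 (0.0643) and with no filter on low counts (0.0541), as adjusted p. Against p53mut it was lost without p53mut replicate 1 (0.0512) or 3 (0.0601), with no filter (0.0503) and with background reads as a covariate (log2 -2.33, 0.138, or -2.35 and 0.131 from protein-coding receptor genes). Without 1 library, its log2 change ran from -3.46 to -2.29 against NrasG12D and from -3.48 to -2.31 against p53mut. Osbpl5, a lipid transfer gene of the Cdkn1c cluster, fell against NrasG12D from 12.5 ± 1.27 CPM (SD, n = 3) to 5.20 ± 1.199 CPM (SD, n = 4), with a log2 change of -1.26 ± 0.21 (SE, adjusted p = 0.00283). In the interaction term it was at -1.41 ± 0.31 (SE, adjusted p = 0.0377), a call lost in 9 of 21 other settings, each of them without 1 library. Osbpl5 did not pass against control (-0.58, adjusted p = 0.0962).

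Airn, the antisense RNA that starts inside Igf2r, had 50, 33 and 66 counts in controls, 17, 17 and 36 in p53mut, 33, 32 and 28 in NrasG12D and 17, 8, 16 and 26 in NPmut. NPmut lay below every control in 3 of 4 libraries, and replicate 4 (2.19 CPM) overlapped control replicate 2 (2.03 CPM), with a log2 change of -1.46 ± 0.47 (SE, adjusted p = 0.0619). Airn shares 0 exonic bases with Igf2r, so the counts of one do not overlap the other's exons. Rtl1, a paternally expressed gene between Meg3 and Rian, had 14, 26 and 9 counts in controls, 8, 10 and 3 in p53mut, 0, 0 and 4 in NrasG12D and 0, 7, 4 and 1 in NPmut. NPmut lay below control in all 4, with a log2 change of -2.60 ± 0.88 (SE, adjusted p = 0.0712), with counts as low as those of Meg3. Kcnq1ot1, the antisense RNA of the Cdkn1c cluster, differed by -1.08 ± 0.49 (SE, adjusted p = 0.193).

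Among the annotated genes within 500 kb of Grb10, 5 of 16 passed the filter, edgeR called 0 of them in NPmut against control, and their median was 0.03. Ikzf1, a transcription factor gene of blood cells 353.7 kb away, was at 0.03, and Fignl1 at -0.30. Around Igf2r, 15 of 43 passed and 1, Slc22a3, was called, with a median of -0.05. Around Meg3, 4 of 113 passed, most of the rest being small RNA genes, and 1, Rian, was called, with a median of -1.38. The plot of neighbors shows each of these genes by its distance.

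**Figure D3:**
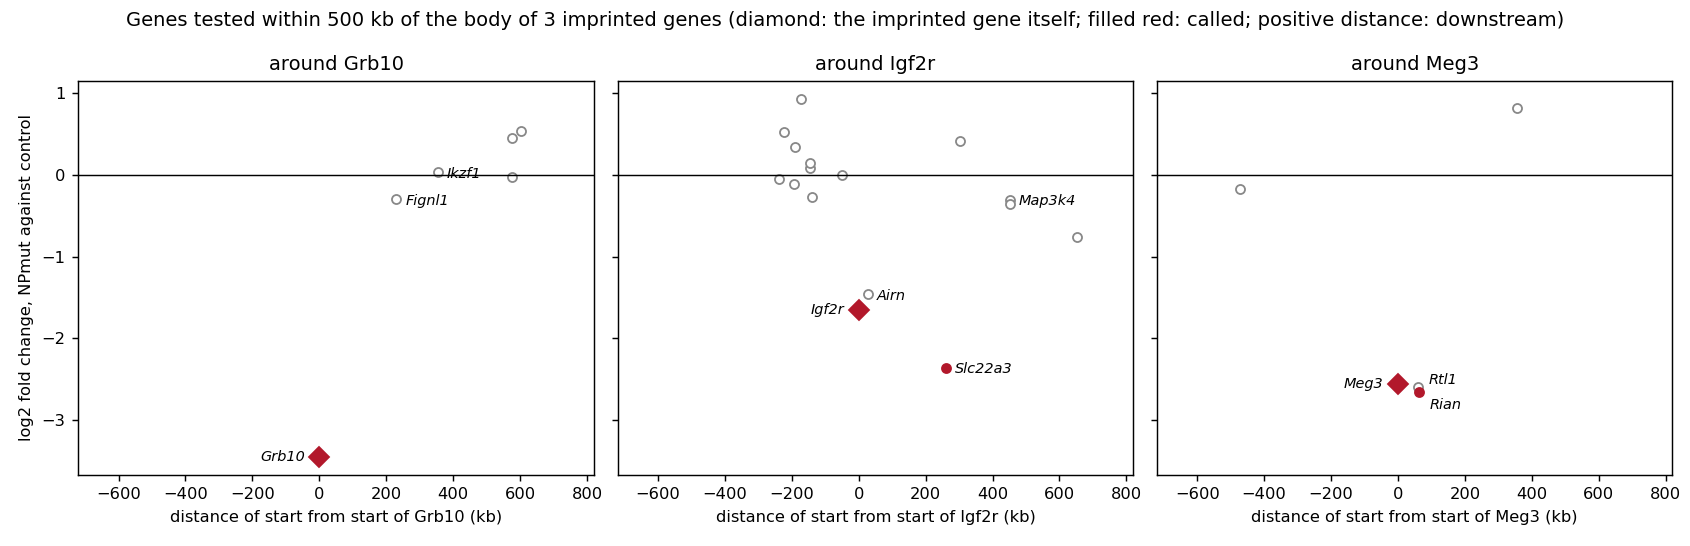
Log2 fold change in NPmut against control (vertical axis) of the genes tested within 500 kb of the body of Grb10, Igf2r and Meg3, by the distance of their starts in kb along the gene's direction (horizontal axis), with diamonds for these 3 genes and filled red for genes called. Grb10 sits at -3.45 while its 5 neighbors tested have a median of 0.03.

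Imprinted genes at other loci were given as a second list. Of 26 listed, 17 passed, and in NPmut against control 2 were called, both lower, with a median of -0.16 and 11 of 17 negative. These, Peg10 and Sgce, are paternally expressed neighbors of 1 locus. Peg10, derived from a retrotransposon, had levels of 2.93, 1.29 and 2.00 CPM in controls, 2.59, 2.59 and 2.48 CPM in p53mut, 1.262, 1.18 and 0.966 CPM in NrasG12D and 0.506, 0.305, 0.431 and 0.337 CPM in NPmut. Like Grb10, it was intermediate in NrasG12D, where each library lay below each control, and lowest in each NPmut library. Its log2 change was -2.37 ± 0.36 (SE, adjusted p = 0.00109) against control, and the call held under 16 of 16 other settings.

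Peg10 also fell against p53mut (-2.67 ± 0.36, SE, adjusted p = 0.000675) and against NrasG12D (-1.51 ± 0.38, SE, adjusted p = 0.0216). The last call was lost without NrasG12D replicate 1 (adjusted p = 0.0821), NrasG12D replicate 2 (0.0719) or NPmut replicate 2 (0.050002), with no filter on low counts (0.0721) and in a fit of these 2 groups alone (0.0801), and its adjusted p ran from 0.01 to 0.0821 over 16 settings. In NrasG12D against control Peg10 was at -0.87 ± 0.37 (SE, adjusted p = 0.493), and in the interaction term at -1.80 ± 0.52 (SE, adjusted p = 0.0904). Sgce, the epsilon-sarcoglycan gene, had 13, 3, 34 and 2 counts in NPmut and between 39 and 58 in controls. It was called against control (-2.05 ± 0.59, SE, adjusted p = 0.0396) and p53mut (-2.03 ± 0.60, SE, adjusted p = 0.0451), and each call was lost in 8 of 16 other settings. Leaving out any control library, NPmut replicate 1 or NPmut replicate 4 gave an adjusted p of 0.0602 to 0.111 against control, and leaving out any p53mut library or the same NPmut libraries gave 0.0737 to 0.14 against p53mut. Over all fits without 1 library, its log2 change ran from -3.16 to -1.65 against control and from -3.14 to -1.63 against p53mut. The covariates of background reads ended both calls with a smaller change (log2 -1.06 and -1.08 against control, -1.30 and -1.33 against p53mut), and a fit of the 2 groups alone ended them at an adjusted p of 0.147 and 0.173. Over all settings the adjusted p ran from 0.000155 to 0.517 and from 0.000241 to 0.34.

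IGF and insulin signaling genes outside the imprinted group showed no common direction. Of 20 listed, 13 passed, and in NPmut against control 1 was called, higher, with a median of -0.11. The gene that rose was Igf2bp3, an RNA-binding protein gene known for binding Igf2 messenger RNA and for its activity in fetal tissues. It had 6, 1 and 10 counts in controls, 4, 10 and 5 in p53mut, 7, 1 and 7 in NrasG12D and 81, 81, 27 and 23 in NPmut. All 4 NPmut libraries were above the other 9, by a log2 of 3.06 ± 0.65 (SE, adjusted p = 0.008) against control, 3.08 ± 0.66 (adjusted p = 0.00995) against NrasG12D and 2.59 ± 0.64 (adjusted p = 0.0185) against p53mut. With background reads as a covariate the call against control was lost at a log2 change of 2.55 (2.56 from protein-coding receptor genes), with adjusted p between 8.36e-06 and 0.145 over 16 settings. The call against p53mut was lost without p53mut replicate 1 (0.0896) or 3 (0.102) or NPmut replicate 1 (0.0553), and with background reads as a covariate (log2 2.17, 0.166, or 2.18 and 0.157 from protein-coding receptor genes), as adjusted p.

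CDK inhibitors and cell cycle genes of G1 had 14 of 16 past the filter, and 2 were called in NPmut against control, both higher, with a median of 0.06. Ccnd1, the cyclin D1 gene, stood at 17.6, 14.1 and 14.2 CPM in controls, 23.9, 12.4 and 14.3 CPM in p53mut, 31.6, 52.0 and 33.6 CPM in NrasG12D and 51.3, 33.3, 72.5 and 35.3 CPM in NPmut. Both groups with the Nras allele were above both groups without it, and they overlapped each other. Ccnd1 rose by 1.65 ± 0.30 (log2, SE, adjusted p = 0.0039) in NPmut against control, and NrasG12D against control was at 1.35 ± 0.31 (SE, adjusted p = 0.178). The call in NPmut was lost with background reads as a covariate, although its log2 change was then 1.96 (1.95 from protein-coding receptor genes), with adjusted p between 5.74e-17 and 0.0563 over 16 settings.

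Cdkn1a, which encodes the CDK inhibitor p21, stood at 4.54, 3.39 and 3.02 CPM in controls, 5.84, 3.03 and 2.14 CPM in p53mut, 3.27, 4.91 and 5.47 CPM in NrasG12D and 14.8, 10.1, 5.33 and 13 CPM in NPmut. NPmut replicate 3 overlapped the p53mut and NrasG12D libraries, and the other 3 NPmut libraries were above all of them. Against control the log2 fold change was 1.56 ± 0.38 (SE, adjusted p = 0.0165), a call lost without control replicate 2 (0.0626) or 3 (0.0822), as adjusted p, and with background reads as a covariate (log2 0.725, or 0.726 from protein-coding receptor genes), over a range of 3.76e-06 to 0.515. The call of Cdkn1a against p53mut was lost in 5 of 16 other settings, namely in a fit of these 2 groups alone (adjusted p = 0.0783), with either covariate (log2 0.898 and 0.906), and without p53mut replicate 2 (adjusted p = 0.062) or 3 (0.102). Cdkn1c, the imprinted gene of the same inhibitor family, was at -0.28 in NPmut against control.

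Genes that maintain imprints, such as the DNA methyltransferase gene Dnmt1 and the corepressor gene Trim28, had 13 of 15 past the filter. edgeR called 0 of them in NPmut against control, where 1 had an unadjusted p under 0.05, DESeq2 called 0 and the median was -0.08. That 1 gene was Tet1, a gene of DNA demethylation, at -0.84 (adjusted p = 0.0292), less than the 2-fold a call needs. In p53mut and in NrasG12D against control, edgeR called 0 genes of these 5 lists. In p53mut 1 gene of them had an unadjusted p under 0.05 and DESeq2 called 0, and in NrasG12D these counts were 10 and 1. Against NrasG12D, NPmut had 2 of 16 cluster genes (Slc22a3 and Osbpl5), 1 of 17 genes of other loci (Peg10) and 1 of 13 IGF genes (Igf2bp3) called, with medians of -0.42, 0.09 and -0.09 over these lists. Against p53mut, the calls were Slc22a3, Peg10, Sgce, Igf2bp3, Ccnd1 and Cdkn1a.

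**Figure D4:**
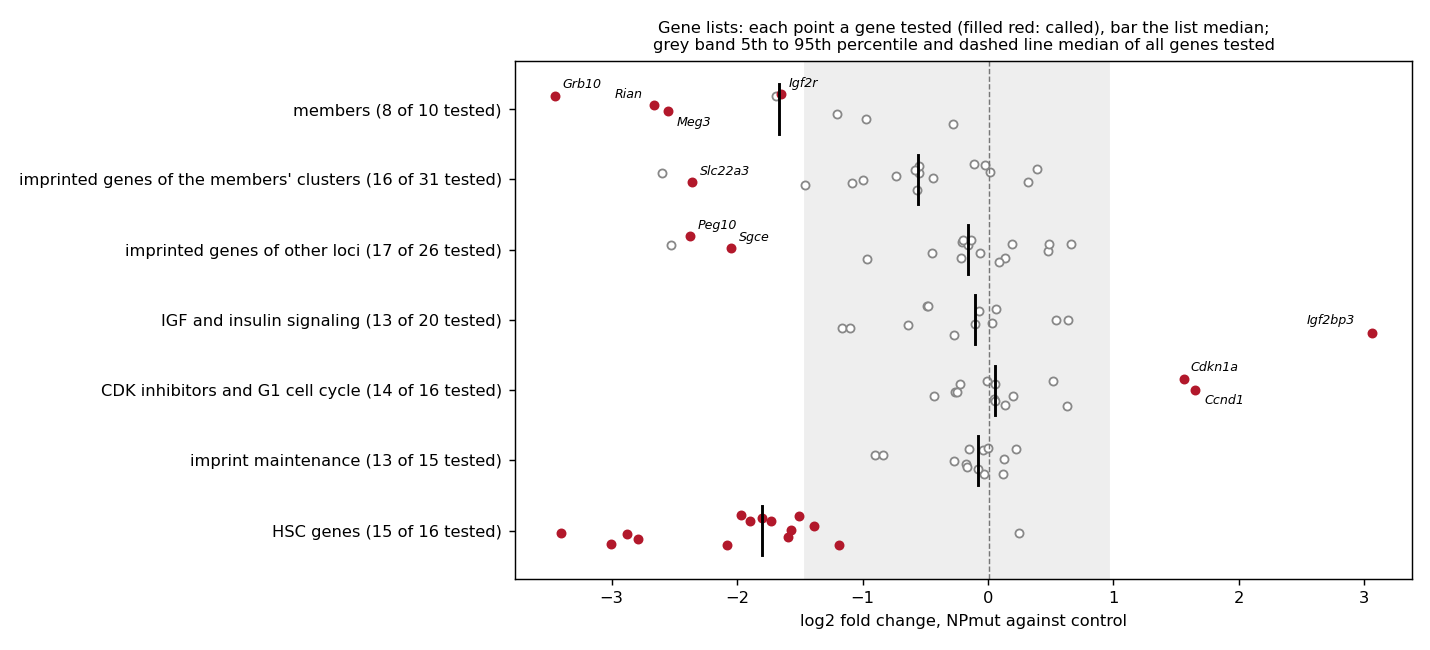
Log2 fold change in NPmut against control (horizontal axis) of each gene tested in 7 lists (vertical axis), filled red where called, with a bar at each list's median, and over all genes tested the range from the 5th to the 95th percentile in grey and the median as a dashed line. The imprinted growth-control genes, named members in the plot, have a median of -1.67 and the stem cell genes one of -1.80.

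Genes of hematopoietic stem cells (HSC) and of other blood cells moved with these results. In the plot of gene lists, 14 of 15 HSC genes tested were called lower in NPmut against control, with a median of -1.80 and Tek at -3.41 among them. Of these 14 calls, 4 held under every other setting and none turned. With background reads as a covariate 5 of the 14 were called (6 with protein-coding receptor genes), at a median of -2.14 over the 14, and Tek was at -3.34 (adjusted p = 0.0578). No filter on low counts or a fit of NPmut and control alone left 11 of them, and the replicate block 13. Leaving out control replicate 3 left 8, control replicate 1 left 11, and NPmut replicate 2, 3 or 4 left 13 each. The summed HSC list stood at 544, 394 and 570 CPM in controls, 536, 358 and 670 CPM in p53mut, 541, 474 and 477 CPM in NrasG12D and 179, 92.2, 243 and 126 CPM in NPmut. The 4 NPmut libraries were below all others, and the NrasG12D libraries lay among the controls. Single HSC genes can differ from this sum, as Fgd5 did with means of 4.77 CPM in controls, 1.73 CPM in NrasG12D and 0.648 CPM in NPmut, and all 3 NrasG12D libraries below all 3 controls. Angpt1 was on average the most abundant HSC gene, and NPmut replicate 4 had 3 of 16 HSC genes at 0.

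Megakaryocyte markers, 5 of 7 past the filter and all 5 called lower in NPmut against control, summed to 172, 125 and 201 CPM in controls and to 32.7, 13.7, 69.3 and 21.4 CPM in NPmut, with Itga2b the most abundant on average. Of the 5 calls, 2 (Pf4 and Vwf) held under every other setting. The Itga2b call (log2 -1.96) was lost in 9 of 16, namely with no filter on low counts, in a fit of NPmut and control alone, with either covariate of background reads (-1.65 and -1.68), and without control replicate 1 (adjusted p = 0.0734) or 3 (0.0865) or NPmut replicate 1 (0.062), 2 (0.0507) or 4 (0.06). Gp9 (log2 -1.77) lost its call with either covariate (-1.91 and -1.93) and without control replicate 3 (adjusted p = 0.05003). Between 172 and 191 CPM were seen in NrasG12D and between 128 and 256 CPM in p53mut. Erythroid markers, 8 of 9 past the filter with Klf1 called lower, summed to 372 ± 68.9 CPM in controls, 397 ± 95.9 CPM in p53mut, 297 ± 42.8 CPM in NrasG12D (SD, n = 3 each) and 159 ± 95.5 CPM in NPmut (SD, n = 4). Car1 was on average their most abundant gene. The Klf1 call was lost in 8 of 16 other settings, among them with either covariate of background reads (log2 -2.52 and -2.53, against -1.66 without them) and without control replicate 1, 2 or 3 (adjusted p = 0.0529, 0.098 and 0.109) or NPmut replicate 1 (0.0816). NPmut replicates 2, 1, 3 and 4 had 49.5, 108, 240 and 238 erythroid CPM and 4.23, 11.7, 16.2 and 19.5 CPM of Igf2r. In the same order the megakaryocyte sums were 13.7, 32.7, 69.3 and 21.4 CPM and the HSC sums 92.2, 179, 243 and 126 CPM. Each of these sums was higher in replicate 3 than in replicate 4, unlike Igf2r. Car1 made up 66.6% to 77.7% of the erythroid sum in NPmut. Monocyte and macrophage markers, all 7 past the filter with Csf1r and Cx3cr1 called higher, were above every other library in the 4 NPmut libraries, at 581, 960, 394 and 432 CPM, with Ly6c2 on average the most abundant. The Cx3cr1 call was lost in 5 of 16 other settings, namely with either covariate of background reads (log2 1.59 in both, against 1.15 without them), without control replicate 2 (adjusted p = 0.0752) or 3 (0.0775), and without NPmut replicate 2, where its change was under 2-fold (log2 0.987).

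**Figure D5:**
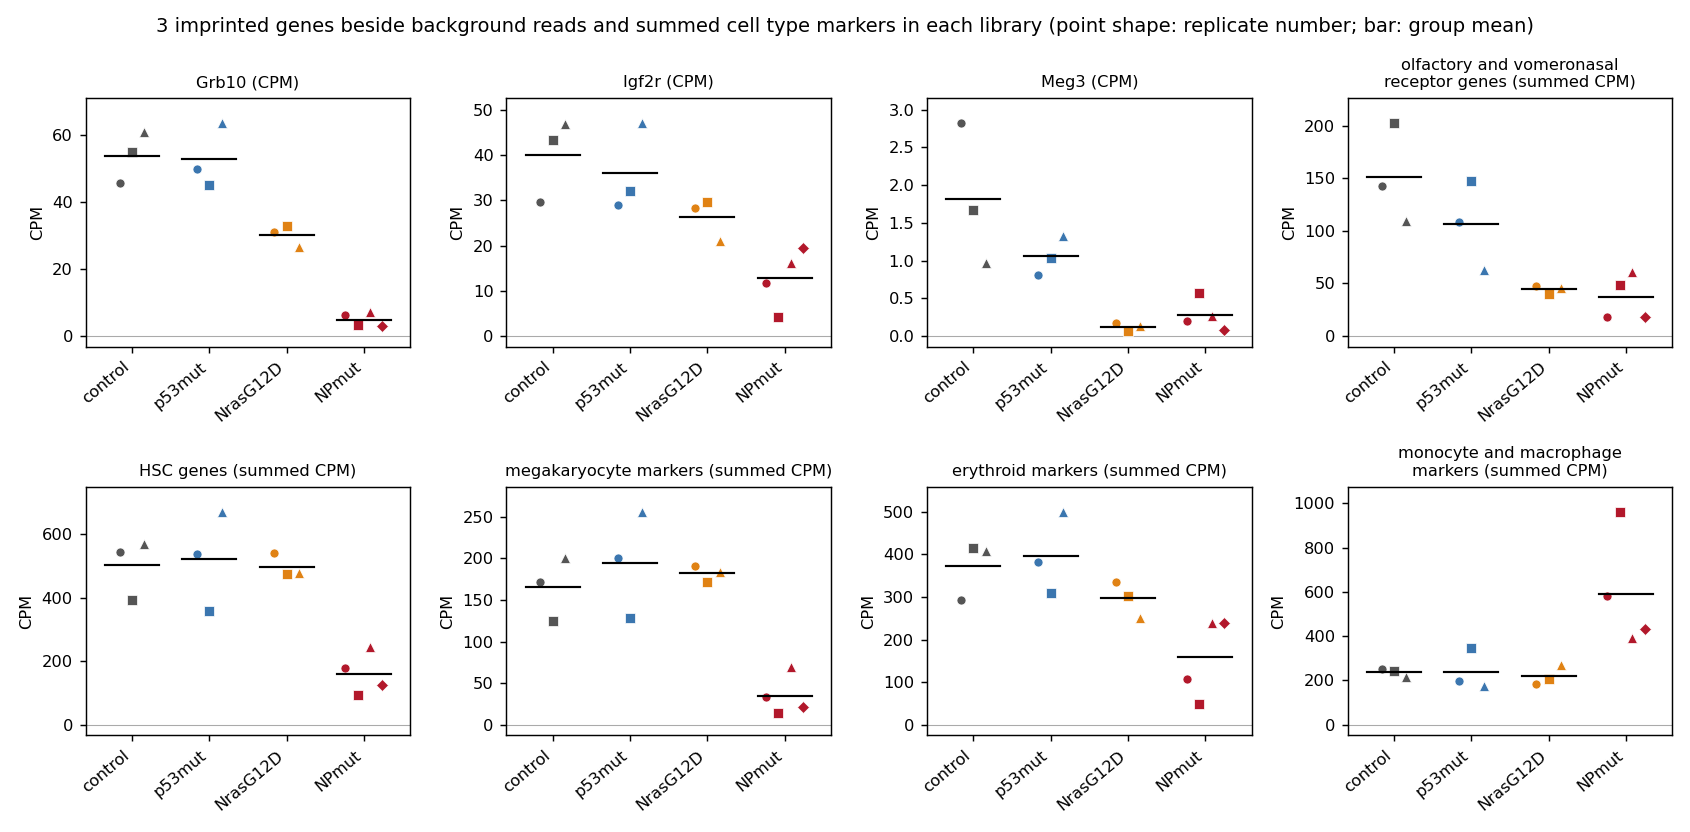
CPM (vertical axis, from 0) in every library by genotype (horizontal axis) of Grb10, Igf2r and Meg3, of background reads on receptor genes and of 4 summed marker lists, with the point shape giving the replicate number and the bar the group mean. Background reads and Meg3 are low in both NrasG12D and NPmut, while HSC and megakaryocyte sums are low in NPmut alone.

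The sums of other cell types rested much on single genes. Stromal markers, 4 of 11 past the filter, summed to 35.6 ± 4.45 CPM in controls and 40.3 ± 18.9 CPM in NPmut. Pdgfrb made up 67.1% to 84.8% of this in controls and 88.8% to 94.7% in NPmut, and the other stromal markers summed to 8.98 ± 2.65 and 2.88 ± 0.736 CPM. Endothelial markers summed to 184 ± 11.2 and 201 ± 17.2 CPM, and to 95.8 ± 3.56 and 62.7 ± 12 CPM without Pecam1. Neutrophil markers summed to 12453 ± 1447 CPM in controls and 15512 ± 4093 CPM in NPmut. B lymphoid markers gave 14.2 ± 1.73 and 18.4 ± 5.26 CPM, and T and NK markers 62.1 ± 7.46 and 44.6 ± 9.36 CPM (SD, n = 3 for control and n = 4 for NPmut in each pair). Neither the neutrophil nor either lymphoid list had a gene called in NPmut against control, whereas 1 stromal gene (Col1a2) and 2 endothelial genes (Kdr and Emcn) were called lower and 1 marker of progenitors (Flt3) higher. The Flt3 call was lost in 9 of 16 other settings, among them library totals, no filter on low counts, a fit of NPmut and control alone and either covariate of background reads (log2 1.28 and 1.27, against 1.15 without them). It was also lost without control replicate 2 (adjusted p = 0.121), control replicate 3 (0.138) or NPmut replicate 1 (0.0673), and without NPmut replicate 3, where its change was under 2-fold (log2 0.838). The covariates also ended the calls of Col1a2 (log2 -3.29 and -3.28, against -2.95 without them) and Emcn (-2.15 and -2.16, against -2.35), a fit of NPmut and control alone those of Kdr and Emcn, and leaving out control replicate 3 those of Kdr (adjusted p = 0.0858) and Emcn (0.0961). The part of the cell types and their markers in the fall of Grb10, Igf2r, Meg3 and Rian was not tested.

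Among the genes whose pattern over the 13 libraries was most like that of Grb10 were Zfp462 and Plxnc1, with Pearson r of 0.980 and 0.977 in log2 CPM among 12974 genes. For Igf2r the most like were Myh10, Epor and Myo1d, with r of 0.985, 0.982 and 0.980, and Epor, the erythropoietin receptor gene, is on the erythroid list. All 5 were low in NPmut, and the libraries' genotypes shape these r values. Myh10 averaged 159 CPM in controls, 76.2 CPM in NrasG12D and 36.8 CPM in NPmut, and so had, like Igf2r, an intermediate mean in NrasG12D.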

How the data were processed

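The counts per gene are those the authors deposited. By the submitters' processing notes, reads were aligned to GRCm38.p6 with STAR 2.6.1d and handled with R 3.6.1 and DESeq2 1.26.0. The counting program, the annotation release and the handling of strand are not given in the sources used here. Libraries came from a stranded total-RNA kit (SMARTer Pico). Gene names, positions and exon lengths were taken from GENCODE M21, in which 29 of the 54838 IDs, with 0.0032% of the counts, were not found. In R 4.3.3, edgeR 4.0.16 (with limma 3.58.1) was fitted to all 13 libraries with 1 mean per group, TMM factors, filterByExpr and a robust quasi-likelihood test, and p-values were adjusted by Benjamini-Hochberg over the 17795 genes tested. The SE of a log2 fold change is its absolute size divided by the square root of the edgeR test's F value, which is imprecise for very small changes. DESeq2 1.42.0 was the second test. RPKM divides CPM by the summed exon length. The code was tested on simulated data.

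All 10 imprinted genes are named. Of each list, the genes called in a comparison are named, at most the 6 with the largest change, as is each gene of a count of 5 or fewer. For a gene with a mean of at least 20 counts, the 3 genes with the highest Pearson r are named, out of genes averaging 1 or more in log2 CPM. Some genes that these rules name are not reported here, though list counts and sums hold them. Airn, Rtl1, Kcnq1ot1, Tet1, Ikzf1, Fignl1 and Pecam1 were named after their values had been seen. The genes and lists were chosen with earlier results of these data known. After removal of group means, libraries of control and p53mut with the same replicate number had correlations across genes of 0.166, 0.163 and 0.152, and pairs with different numbers between -0.105 and -0.0598. Between other groups, some libraries with different numbers reached as much, such as 0.239 for control replicate 3 and NPmut replicate 1. Whether the numbers pair control with p53mut was therefore not settled. A block for the number was among the other settings.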

Additional observations from a re-analysis of the deposited data

Results flagged for a closer look

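In 46 named genes, 2 NPmut libraries stood apart from the other 3 of their group in CPM. Pdzk1ip1, an HSC gene, was at 2.85 CPM in NPmut replicate 3, and Kdr, an endothelial marker, at 0.759 CPM in NPmut replicate 1. Chance alone sets apart a library in about 1 in 20 groups.

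Further, 7 of these genes, some of which are named because a test called them, had an NPmut level apart from what adding the effects of both alleles alone gives, by the test of the interaction term, which called 1.28% of all genes tested. Moribund stage and the lack of pI-pC in NPmut enter that term as well and cannot be told apart from a joint effect of the alleles. The departure was -2.58 (log2) for Grb10 and -1.41 for Osbpl5, both imprinted. Among the HSC genes it was -3.83 for Tek and -3.70 for Slamf1. For the endothelial marker Eng it was -1.18, and for the megakaryocyte markers Vwf and Pf4 it was -2.86 and -3.71. The calls of Grb10, Vwf and Pf4 held under 21 of 21 other settings. The others were lost only without single libraries. For Tek these were control replicate 1 (adjusted p = 0.0536) or 2 (0.0672), p53mut replicate 3 (0.0601) and NrasG12D replicate 2 (0.051). For Slamf1 they were control replicate 1 (0.0708) or 2 (0.0871), p53mut replicate 1 (0.079) or 3 (0.0765) and NrasG12D replicate 1 (0.0711) or 3 (0.0559). For Eng they were control replicate 1 (0.0706), 2 (0.075) or 3 (0.0572), p53mut replicate 3 (0.0689, with a log2 of -0.972) and NrasG12D replicate 2 (0.0897). For Osbpl5 they were any control or NrasG12D library, p53mut replicate 1 or 3 and NPmut replicate 4, with adjusted p between 0.0503 and 0.117.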

How the results depend on the processing

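Each of the 9 results called for the imprinted genes kept its direction under all other settings, with 125 of these values also past the threshold and 21 not. Of the results not called, 582 values were alike, 9 passed the threshold (3 results) and 36 turned sign (14 results). The number of imprinted genes called in NPmut against control was 4, and it was 1 with background reads as a covariate, from all receptor genes or from the protein-coding ones alone, and between 2 and 4 when 1 library was left out. Against p53mut it was 3, and 4 by DESeq2. It was 1 there with either covariate or in a fit of the 2 groups alone, and between 1 and 4 with 1 library left out. In NrasG12D against control it was 0, and 1 by DESeq2, with no filter, in a fit of 2 groups or with the replicate block. Against NrasG12D it was 1, and 2 by DESeq2. The protein-coding covariate, and the block in a fit of control and p53mut alone, were chosen after seeing the data. With the covariate, the log2 value turned for Cdkn1c in NrasG12D (-0.39, or -0.42 from protein-coding receptor genes), Ndn in NrasG12D (0.15 and 0.15), and Peg3 in NPmut against control (1.67 and 1.66), in NrasG12D (0.075 and 0.10) and in NPmut against p53mut (0.42 and 0.38). With the replicate block, Rian turned in the interaction (0.16). With 1 library left out, the lowest and highest values were -0.57 and 0.11 for Cdkn1c in NPmut against control, -0.23 and 0.46 for Cdkn1c in NrasG12D against control, -0.28 and 0.53 for Rian, -0.17 and 0.078 for Grb10, -0.91 and 1.16 for Plagl1, -0.055 and 0.85 for Peg3 in p53mut against control, -0.32 and 0.56 for Rian, -0.00115 and 0.94 for Plagl1 in NPmut against NrasG12D, -0.50 and 0.42 for Rian, -0.82 and 1.25 for Plagl1 in the interaction. All genes called moved by over 1.5-fold as follows. In NPmut against control 1065 became 651 in a fit of 2 groups, 565 and 608 with the covariates and 586 without control replicate 3. In p53mut 0 became 3 by DESeq2, 9 with no filter, 1 in a fit of 2 groups, 16 with the block added and 1 without control replicate 3. In NrasG12D 1 became 77 by DESeq2, 3 with RLE factors, 0 with library totals or a covariate, 159 with no filter, 81 in a fit of 2 groups, 27 with the block, and 0 to 2 with 1 library left out. Against NrasG12D 786 became 440 in a fit of 2 groups, 444 without NrasG12D replicate 1 and 461 without NrasG12D replicate 2. Against p53mut 927 became 478 in a fit of 2 groups, 602 with the covariate, 583 without p53mut replicate 1 and 431 without p53mut replicate 3. In the interaction 228 became 615 by DESeq2, 651 with no filter, 351 with the block and 65 to 531 with 1 library left out. A fit of 2 groups has fewer libraries, and no filter tests 44944 genes. The cause was not tested otherwise. Library totals moved the median of all genes in NPmut against control to -0.11. Of 73 called results of other genes, 47 lost their call in at least 1 setting, and none turned.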
